A study of Mus musculus with 6 samples.

Results

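The aminoacyl-tRNA synthetases are the enzymes that load each transfer RNA (tRNA) with its amino acid, and their genes were examined in growth plate cartilage of mice with and without expression of mutant Idh1. The genes were chosen by name: a letter for the amino acid followed by ars, with an optional ending of 1, 2, a, b or l2, which matched 37 of the 46078 genes in the count tables. Of these, 18 encode cytosolic enzymes, 17 encode mitochondrial enzymes (names ending in 2), and Gars and Kars each serve both compartments. All 37 genes passed the filter on low counts. The name rule does not take in Eprs, the joint glutamate and proline enzyme of the cytosol, which is given below with the partner genes.

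Each synthetase recognises 1 amino acid and the tRNAs that decode it, joins them at the expense of ATP, and so sets the supply of substrate for the ribosome. Mitochondria translate a small set of respiratory chain proteins on ribosomes of their own, and most of the synthetases they use are encoded by separate nuclear genes. Synthetases fall into a pair of unrelated folds, class I and class II, and several of the cytosolic enzymes are held with scaffold proteins in a multisynthetase complex. Uncharged tRNA is sensed by the kinase Gcn2 (gene Eif2ak4), which raises translation of the transcription factor Atf4, and several cytosolic synthetase genes are known targets of Atf4. Growth plate chondrocytes secrete large amounts of collagen and proteoglycan and thus have a high demand for charged tRNA.

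Bulk RNA sequencing was performed on cartilage of the distal femur and proximal tibia at E18.5 in 3 control and 3 mutant libraries. Controls carried 1 lox-stop-lox allele of Idh1 (Idh1 LSL/+), and mutants carried the same allele with Col2a1-Cre, a transgene that drives the recombinase from a collagen II promoter active in chondrocytes. The allele encodes Idh1 R132Q according to the study's methods, and since only mutants had Cre, the transgene and the mutant enzyme cannot be told apart. Controls were litter mates of the mutants, but the labels name no litter, and their text on animal care gives an age of 2 months where the sample labels give E18.5. Nothing in the labels says whether 1 library is 1 animal, so that the p-values measure the spread between these libraries.

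Counted reads per library came to between 23445687 and 30415773, and the lowest count of any synthetase gene was 145, for Pars2 in mutant 1. Levels are given in CPM (counts scaled to the size of the library, with its TMM factor). A floor of 3 counts corresponds to between 0.0986 and 0.128 CPM before the TMM factor, which covers counting error only. Mutant 3 stood apart from the other libraries in Xist, with 26356 counts against 0 to 13 counts, and in the Y-linked genes Ddx3y, Eif2s3y, Kdm5d and Uty, with 0 counts together against 3871 to 5449 counts. Markers of chondrocytes were present in every library (summed level of 6 genes 3107 to 7039 CPM, overlapping between groups), and so were markers of skeletal muscle (6 genes, 13768 to 21352 CPM, overlapping). In bulk cartilage, fewer cells of a type and less RNA per cell cannot be told apart.

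Promoters of synthetase genes were examined first, because the C/EBP-ATF response element is the site through which Atf4 and its partners act on amino acid responsive genes. RefSeq promoters (GRCm38.p6, 250 bases before to 50 bases after the start) matched 26 of the 37 genes, namely 10 cytosolic, 14 mitochondrial and both dual genes. The core of the element, TGATGNAA on either strand, was found in 5 of the 26, against 4.51% of all 27025 genes in that table. These were Gars, Tars, Aars, Iars and Yars, and none of the 14 mitochondrial promoters held it. Stretches with the core in capitals are printed below, with position 0 as the start base, and a core on the reverse strand appears as its reverse complement.
Gars, chr6:55037901-55038000, forward strand, positions -100 to -1: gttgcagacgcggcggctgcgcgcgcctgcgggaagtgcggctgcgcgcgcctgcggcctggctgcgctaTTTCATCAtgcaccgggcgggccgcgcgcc
Tars, chr15:11399659-11399758, reverse strand, positions -100 to -1: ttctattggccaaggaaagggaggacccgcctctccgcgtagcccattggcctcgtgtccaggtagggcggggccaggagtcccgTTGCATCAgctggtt
Aars, chr8:111033840-111033869, forward strand, positions -2 to 27: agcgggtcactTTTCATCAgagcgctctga
Iars, chr13:49682126-49682155, forward strand, positions -4 to 25: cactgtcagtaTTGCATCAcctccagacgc
Yars, chr4:129189895-129189924, forward strand, positions -8 to 21: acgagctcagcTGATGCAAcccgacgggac

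The cores printed for Aars, Iars and Yars lay just after the RefSeq start. The Aars, Iars and Yars stretches above lie wholly in exons of GENCODE transcripts that begin upstream of the RefSeq start, and the Gars stretch lies in no annotated exon. For contrast, the same window of Sars and of Cars2, a pair of genes with some of the lowest p-values between genotypes, held no such core, which says only that these letters are not in the window.
Sars, chr3:108445260-108445359, reverse strand, positions -100 to -1: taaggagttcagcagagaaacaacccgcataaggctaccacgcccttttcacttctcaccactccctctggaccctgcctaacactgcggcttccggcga
Cars2, chr8:11550772-11550871, reverse strand, positions -100 to -1: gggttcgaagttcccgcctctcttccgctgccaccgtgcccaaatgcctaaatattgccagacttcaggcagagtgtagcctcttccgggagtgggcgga

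The E-box CACGTG, a palindrome bound by Myc and related factors, was found in the promoters of Aars, Iars, Farsb, Tars and Ears2, against 8.09% of all genes. The Iars copy lay upstream of the start and is shown in capitals.
Iars, chr13:49682030-49682099, forward strand, positions -100 to -31: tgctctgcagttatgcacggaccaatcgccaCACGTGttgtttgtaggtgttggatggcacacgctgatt
Neither motif overlapped the other in these promoters. Matches are a description of the sequence and show no binding.

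Levels of the synthetases were compared per length, as RPKM (CPM per kilobase of counted exon). Cytosolic genes had a median of 17.0 RPKM over the 6 libraries, from Tarsl2 at 6.90 RPKM to Nars at 45.8 RPKM. Mitochondrial genes without Lars2 had a median of 4.17 RPKM, from Mars2 at 1.18 RPKM to Cars2 at 8.86 RPKM. The dual genes stood above the cytosolic ones, with Gars at 64.5 RPKM and Kars at 56.6 RPKM. Lars2, the mitochondrial leucine enzyme, was listed at 340 RPKM, and its counts are uncertain, as described further on. In the order of levels, 28 of the 36 neighbouring pairs of genes had overlapping ranges over the libraries, Gars and Kars among them, whereas Kars and Nars, Nars and Tars, and Hars and Iars did not. Exon lengths are those of all annotated exons together, so that genes with a long total, such as Mars2 (11294 bases) and Aars (9282 bases), are set low on this scale.

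**Figure D1:**
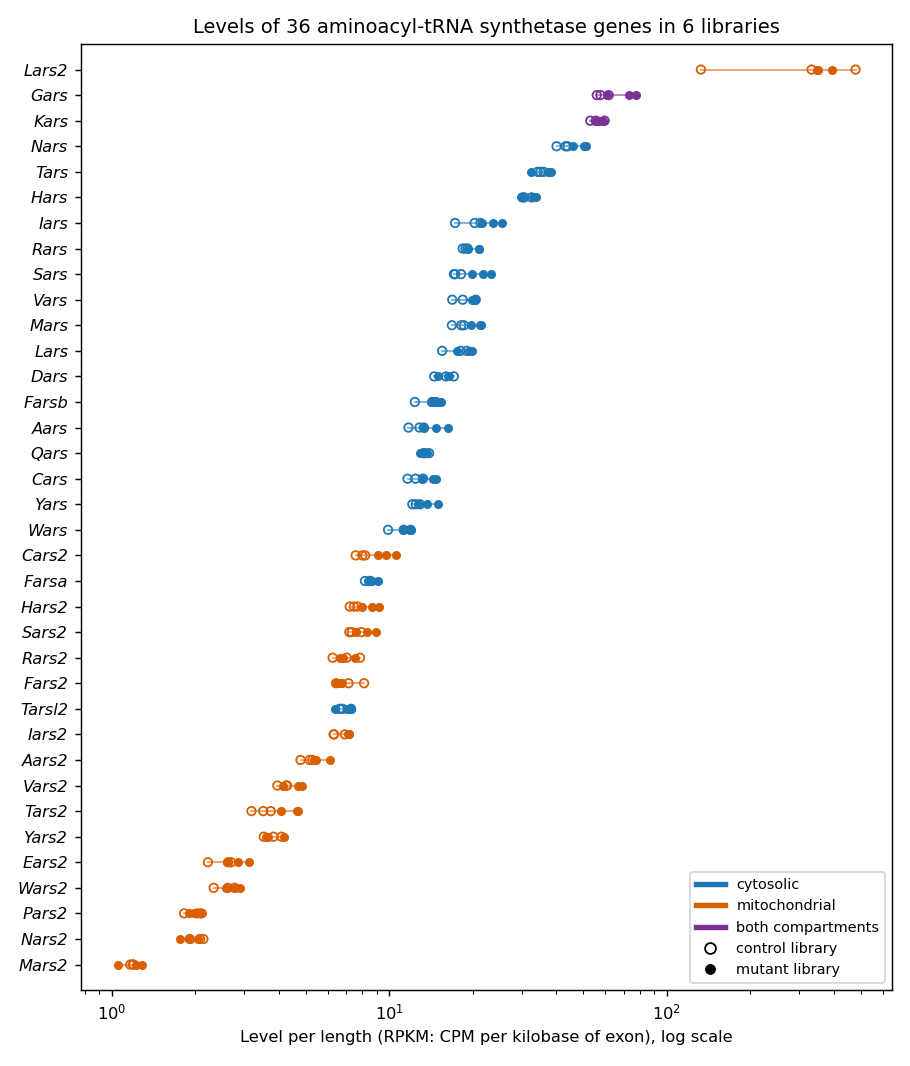
Level per length (RPKM, log axis) of 36 of the 37 synthetase genes in each library, with controls as open and mutants as filled circles and the compartment as colour. Lars2 is at the top, and Cars2 is the highest of the other mitochondrial genes at 8.86 RPKM, with the cytosolic genes Farsa (8.56 RPKM) and Tarsl2 (6.90 RPKM) below it.

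Pairs of enzymes for the same amino acid could be compared for 15 amino acids. The cytosolic gene was higher per length than its mitochondrial partner in every library in 14 of the 15 pairs, all but Lars and Lars2. Mean ratios of these 14 ran from 1.25 for Farsa, the alpha subunit of the cytosolic phenylalanine enzyme, over Fars2, to 23.3 for Nars over Nars2, the asparagine pair. Qars, Gars and Kars have no separate mitochondrial partner in this list, and Ears2 and Pars2 have Eprs as theirs.

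**Figure D2:**
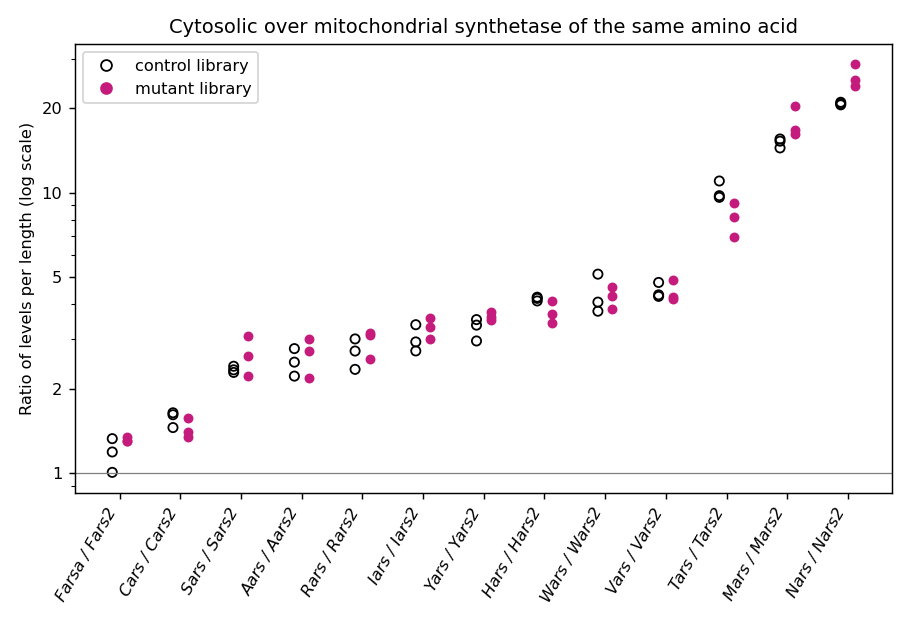
Ratio of the level per length of the cytosolic gene to that of its mitochondrial partner (log axis) in each library for 13 amino acids, with controls as open and mutants as filled circles. Lars over Lars2 and 1 other pair are not drawn. All ratios lie above 1, and controls and mutants separate for Tars, Mars and Nars over their partners.

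Whether the synthetases differed between genotypes was tested with edgeR's quasi-likelihood test over 16813 genes. No synthetase passed an adjusted p under 0.05, with 0 of 37 called, against 32 of all genes tested (0.19%). DESeq2 and limma-voom also called 0 of the 37, and DESeq2 called 193 of all genes (1.15%). The lowest adjusted p among the synthetases was 0.282 in edgeR and, over all alternatives run, 0.119, for Sars in DESeq2. At an unadjusted p under 0.05, edgeR counted 9 of 37, DESeq2 8 (against 7.35% of all genes tested) and limma-voom 9 (against 8.49%). All 9 of the edgeR genes were higher in the mutants (24.3% of the 37), and none was lower, against 8.64% of all genes tested in either direction, 3.71% higher and 4.93% lower, and they comprised 5 cytosolic, 3 mitochondrial and 1 dual gene. Without mutant 2 this count was 2 of 37 (5.41%), no larger a share than the 5.64% of all genes tested there. Without mutant 3, the library that stood apart, it was 4 of 37 (10.8%) against 7.34%.

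Log2 fold changes (mutant over control) lay between -0.13 and 0.36 and were above 0 in 30 of the 37 genes (81.1%), against 49.3% of all genes tested. By compartment this was 17 of 18 cytosolic genes, 11 of 17 mitochondrial genes and both dual genes. The median log2 fold change was 0.11 for the cytosolic and 0.13 for the mitochondrial genes, or 8.2% and 9.33% above the controls, while the median of all genes tested was -0.0026. Without Lars2, whose count is uncertain, the mitochondrial median was 0.11, or 8.17% above the controls. Leaving out Lars2, the upper end of the 95% interval was at most 0.58 on the log2 scale for every synthetase, that is 1.496 times the control level. The 37 genes were read from the same 6 libraries and are not independent of each other.

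Mutant levels were all above control levels in 11 of the 37 genes (29.7%), and all below in none, against 6.85% of all genes tested that separated upward and 7.58% that separated downward. The 11 were Sars, Mars, Nars, Iars, Aars and Rars of the cytosol and Tars2, Cars2, Hars2, Iars2 and Aars2 of the mitochondria. With a library left out, fewer values must separate, and the count in either direction lay between 12 and 18 (32.4% to 48.6%), against 21% to 26.5% of all genes tested at the same settings.

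**Figure D3:**
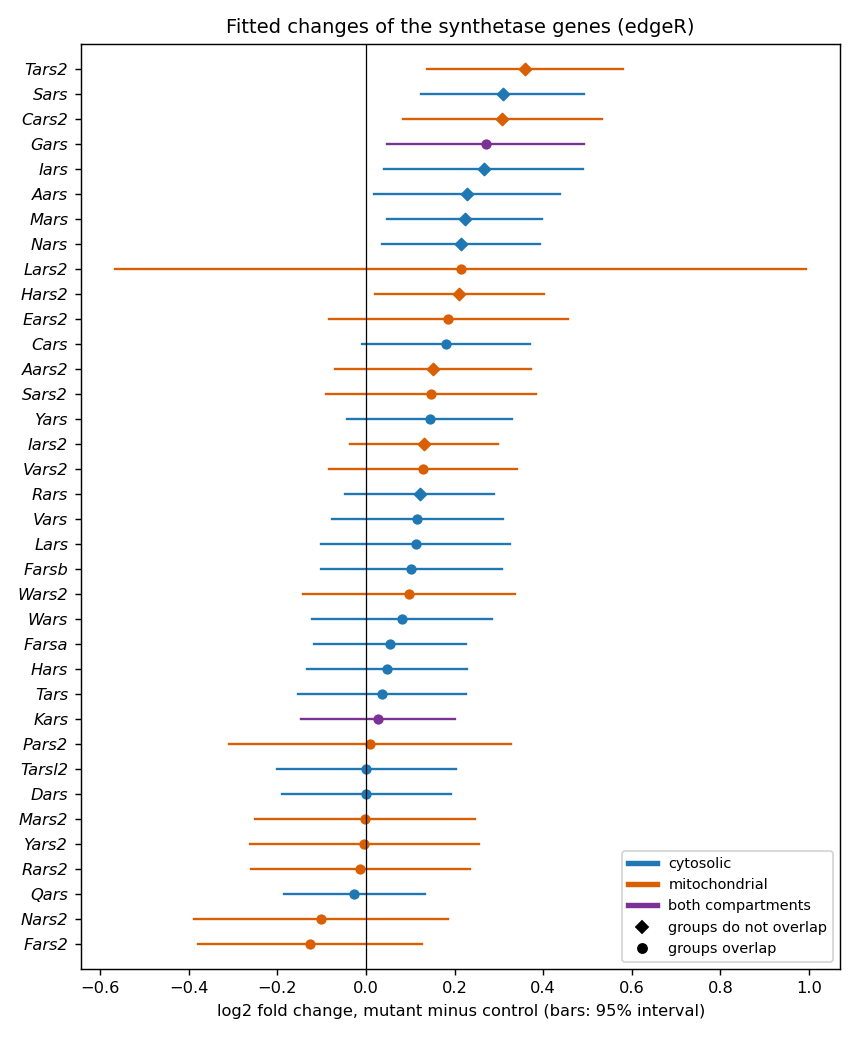
Log2 fold change of 36 of the 37 synthetase genes (mutant minus control, edgeR) with its 95% interval, ordered by size, with diamonds for genes whose groups do not overlap and colour for the compartment. Most points lie right of 0, from -0.13 for Fars2 to 0.36 for Tars2, and Lars2 has the widest interval, from -0.57 to 0.99.

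Among the cytosolic genes, Sars (ENSMUSG00000068739, chromosome 3 from 108424865 to 108445209, reverse strand of GRCm38), which charges serine tRNA and also the tRNA for selenocysteine, had the lowest p. Its level was 87.9, 93.3 and 88.8 CPM in control libraries and 102, 120 and 112 CPM in mutant libraries. Each mutant lay above each control, with mutant 1 nearest to them. Its log2 fold change came to 0.31 (standard error, SE, 0.08, edgeR adjusted p 0.282).
Iars (chromosome 13 from 49682100 to 49734267), the isoleucine enzyme of the multisynthetase complex, had 112, 91.0 and 107 CPM in control libraries and 114, 135 and 124 CPM in mutant libraries. Its groups did not overlap, but mutant 1 and control 1 differed little. The log2 fold change was 0.27 (SE 0.10, edgeR adjusted p 0.501).
Aars (chromosome 8 from 111033144 to 111057664), the alanine enzyme, showed the same order of libraries, at 124, 109 and 119 CPM in the controls against 124, 151 and 136 CPM in mutant libraries. Mutant 1 was above control 1 only by a fraction of a CPM, and the log2 fold change was 0.23 (SE 0.09, edgeR adjusted p 0.536). Its exons share 1403 bases with Exosc6 and Gm24103, only 1 of which lies on the opposite strand, and reads were counted without regard to strand.

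Mars (chromosome 10 from 127296221 to 127311786), which charges methionine tRNA for both initiation and elongation, had 63.6, 57.6 and 62.2 CPM in control libraries and 67.5, 73.4 and 72.9 CPM in mutant libraries. Its log2 fold change was 0.22 (SE 0.08, edgeR adjusted p 0.456), without overlap between groups. Its exons share 68 bases with Ddit3 on the opposite strand, and reads there were counted without strand.
Nars (chromosome 18 from 64499665 to 64516557), the asparagine enzyme and the highest cytosolic gene per length, had 116, 114 and 105 CPM in control libraries and 121, 135 and 132 CPM in mutant libraries. All mutants lay above all controls, and the log2 fold change was 0.21 (SE 0.08, edgeR adjusted p 0.487).
Rars (chromosome 11 from 35808381 to 35834506), the arginine enzyme, had 61.8, 59.4 and 60.7 CPM in the controls against 62.0, 68.2 and 67.7 CPM in mutant libraries, a separation in which mutant 1 lay barely above control 1. Cars (chromosome 7 from 143557230 to 143600090), the cysteine enzyme, had 61.4, 54.0 and 57.6 CPM against 60.6, 68.6 and 66.7 CPM, with mutant 1 inside the range of the controls.

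Other cytosolic genes had log2 fold changes between -0.03 and 0.14. Yars, the tyrosine enzyme, was at the top of this range, with 72.0 to 76.7 CPM in control libraries and 75.5 to 89.1 CPM in mutant libraries. Qars, the glutamine enzyme, was the only cytosolic gene below 0, with 86.5, 87.2 and 90.6 CPM in control libraries and 86.1, 84.2 and 89.2 CPM in mutant libraries, and its groups overlapped. Tarsl2, a second cytosolic threonine enzyme and the lowest cytosolic gene per length, had 29.8, 27.8 and 27.1 CPM in control libraries and 28.8, 29.9 and 26.1 CPM in mutant libraries. Farsa and Farsb, the subunits of the phenylalanine enzyme, had log2 fold changes of 0.05 and 0.10.

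Of the dual genes, Gars (ENSMUSG00000029777, chromosome 6 from 55038001 to 55079504, forward strand), the glycine enzyme, had 148, 134 and 138 CPM in control libraries and 146, 184 and 175 CPM in mutant libraries. Mutants 2 and 3 were above all controls, whereas mutant 1 lay among them, and the log2 fold change was 0.27 (SE 0.10, edgeR adjusted p 0.481). Kars (chromosome 8 from 111993440 to 112011323), the lysine enzyme of the multisynthetase complex, had 119, 125 and 134 CPM against 125, 128 and 133 CPM, with every mutant inside the control range. Its log2 fold change was 0.03, with a 95% interval from -0.15 to 0.20.

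Among the mitochondrial genes, Tars2 (ENSMUSG00000028107, chromosome 3 from 95739976 to 95760206, reverse strand), the threonine enzyme, had the largest log2 fold change of all 37. Its level was 25.9, 22.1 and 24.4 CPM in control libraries and 32.3, 32.4 and 28.2 CPM in mutant libraries, with mutant 3 nearest to the controls. The log2 fold change was 0.36 (SE 0.10, edgeR adjusted p 0.301).
Cars2 (chromosome 8 from 11514021 to 11550771), the cysteine enzyme, had 15.1, 14.8 and 14.0 CPM in control libraries and 17.9, 19.5 and 16.9 CPM in mutant libraries, also without overlap. Its log2 fold change was 0.31 (SE 0.10, edgeR adjusted p 0.411), and 422 of its exon bases overlap Naxd on the opposite strand.
Hars2 (chromosome 18 from 36783008 to 36792562), the histidine enzyme, lies head to head with its cytosolic partner Hars, and 195 exon bases of the pair overlap. It had 31.9, 32.9 and 30.8 CPM in control libraries and 37.1, 39.4 and 34.2 CPM in mutant libraries, a log2 fold change of 0.21 (SE 0.09, edgeR adjusted p 0.524), while Hars had 60.1 to 64.7 CPM and 59.1 to 67.4 CPM.

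Iars2, the mitochondrial isoleucine enzyme, had 56.0, 56.2 and 61.4 CPM in control libraries and 63.6, 63.6 and 63.0 CPM in mutant libraries (log2 fold change 0.13). Its exons share 2148 bases with Rab3gap2 and 2010103J01Rik. Aars2, the alanine enzyme, had 16.04, 17.7 and 17.3 CPM in control libraries and 20.5, 18.2 and 18.0 CPM in mutant libraries (log2 fold change 0.15), where mutant 1 and not mutant 2 was the highest. Mars2, the methionine enzyme and the lowest gene per length, had 13.5, 13.2 and 13.5 CPM in control libraries and 13.8, 14.5 and 11.9 CPM in mutant libraries, so that its mutants lay on both sides of the controls. Fars2 and Nars2, the phenylalanine and asparagine enzymes, had log2 fold changes of -0.13 and -0.10, and their groups overlapped.

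Lars2 (ENSMUSG00000035202, chromosome 9 from 123366940 to 123462664, forward strand) was listed at 1858, 515 and 1290 CPM in control libraries and 1528, 1355 and 1365 CPM in mutant libraries. Control 2 was far below the other libraries, and the log2 fold change of 0.21 (SE 0.35, edgeR adjusted p 0.924) was -0.15 without control 2. One of its transcripts (3894 bases) shares a stretch of 72 bases with the antisense gene Gm15564 at 98.6% identity, from base 3278 to base 3349, after the last coding base. Gm15564 had 95 counts in control 2 and 190 to 334 counts in the other libraries, so that it was lowest in the same library. Mitochondrial ribosomal RNA mt-Rnr2 did not follow this order, with 18978 counts in control 2 and 10763 to 17419 counts elsewhere. The part of shared reads in the Lars2 level was not tested, and its count is uncertain.

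In the pairs of the same amino acid, both genes had a log2 fold change above 0 in 9 of 15. The ratio of cytosolic to mitochondrial level did not overlap between genotypes in 3 of the 15 pairs. Of all single genes tested, 14.4% did not overlap in either direction, and no such share was taken for ratios of other genes. Tars over Tars2 was 9.62, 10.996 and 9.75 in control libraries and 6.93, 8.19 and 9.18 in mutant libraries, lower in each mutant. Mars over Mars2 was 15.5, 14.4 and 15.2 against 16.2, 16.7 and 20.3, and Nars over Nars2 was 20.5, 20.7 and 20.97 against 23.97, 25.1 and 28.6, higher in each mutant. These differences of ratios had no test, and the ratios of the other 12 pairs overlapped.

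The libraries ranked differently for the compartments. Deviations from the control mean had a median over the cytosolic genes of 0.04, -0.03 and 0.02 on the log2 scale in controls 1, 2 and 3 and of 0.04, 0.16 and 0.13 in mutants 1, 2 and 3. For the mitochondrial genes the medians were 0.03, 0.03 and 0.01 in control libraries against 0.18, 0.11 and 0.05 in mutant libraries. Mutant 1 was the lowest of the 3 mutants in 16 of the 20 cytosolic and dual genes and the highest in none, whereas mutant 3 was the lowest in 12 of the 17 mitochondrial genes and the highest in none. The cytosolic levels were thus farthest from the controls in mutants 2 and 3, and the mitochondrial levels in mutants 1 and 2. Without mutant 3 the median log2 fold change was 0.10 for the cytosolic and 0.14 for the mitochondrial genes, and without mutant 1 it was 0.15 and 0.08.

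**Figure D4:**
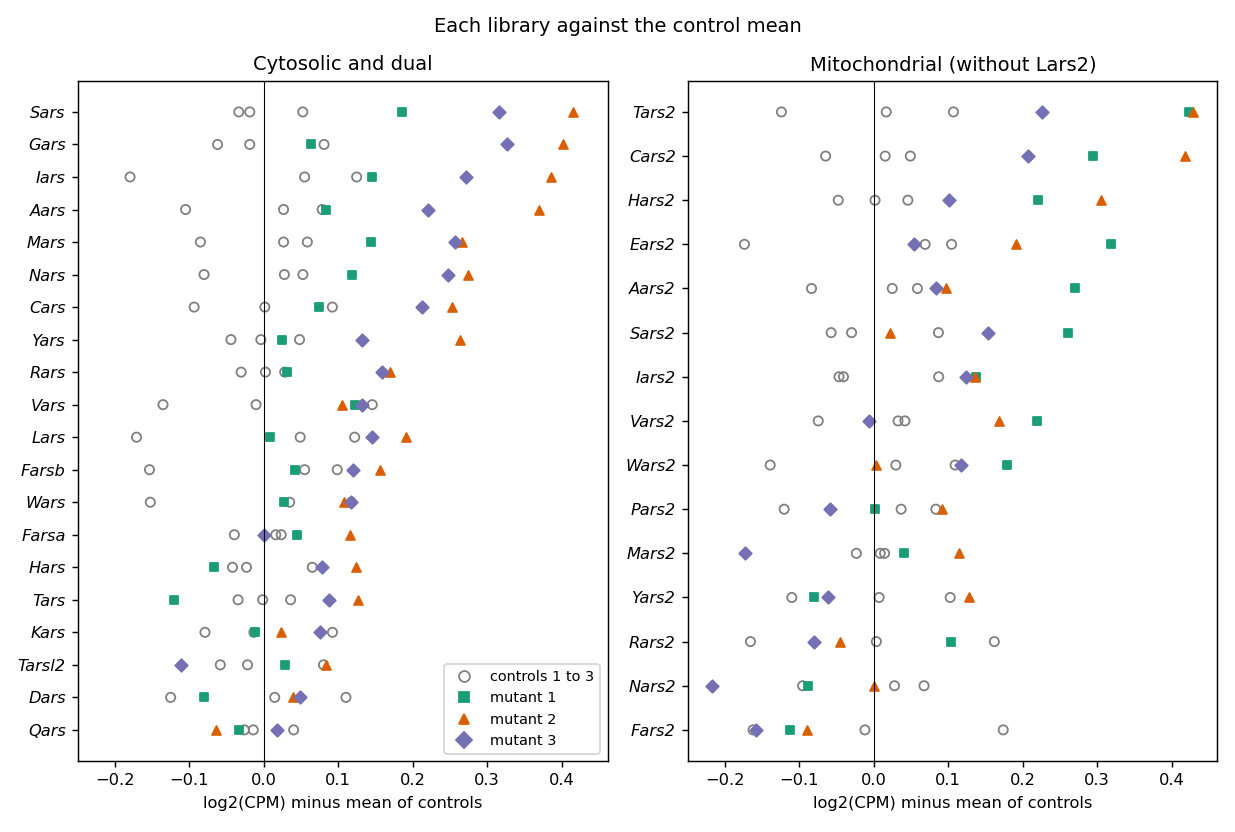
Log2 CPM of each library minus the mean of the controls, per gene, for cytosolic and dual genes (left) and 15 mitochondrial genes without Lars2 (right), with controls as open circles and each mutant as a symbol of its own. Mutant 1 (squares) lies nearest to the controls for most cytosolic genes, and mutant 3 (diamonds) for most mitochondrial genes.

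Summed over all cytosolic and dual genes, the level was 1599, 1517 and 1581 CPM in control libraries and 1618, 1817 and 1759 CPM in mutant libraries, higher in each mutant but in mutant 1 by little. Summed over the mitochondrial genes without Lars2, it was 301, 299.8 and 295 CPM in control libraries and 333, 332 and 310 CPM in mutant libraries. The ratio of these sums was 5.31, 5.06 and 5.36 in control libraries against 4.86, 5.48 and 5.68 in mutant libraries, and thus overlapped.

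Grouped by fold, the 18 class I genes had a median log2 fold change of 0.13, with 14 above 0 and 5 without overlap. The 19 class II genes had a median of 0.05, with 16 above 0 and 6 without overlap. The 7 cytosolic or dual members of the multisynthetase complex had a median of 0.11 (6 above 0, 3 without overlap), and the 13 free ones had 0.12 (13 above 0, 3 without overlap). Of the genes with a RefSeq promoter, the 5 with the element core printed above had a median of 0.23, from Tars at 0.03 to Gars and Iars at 0.27, and the others had 0.10. All 5 were cytosolic or dual, whereas the others included 14 mitochondrial genes. Only 10 of the 18 cytosolic genes had a matched promoter. Within these 10, the median was 0.19 for the 4 genes with the core and 0.03 for those without it. For the E-box, also held by 4 of the 10, the medians were 0.17 and 0.03, and Aars, Iars and Tars held both motifs. Cytosolic genes without a matched promoter are in none of these medians, and all 18 together had 0.11. Genes whose exons overlap another gene had a median of 0.13 (15 genes, 5 without overlap between groups), against 0.10 for the other 22 (6 without overlap between groups). Every gene without overlap in these groups separated upward, as did 6.85% of all genes tested, and 49.3% of all genes tested had a log2 fold change above 0. None of these groups held a called gene, and differences between them were not tested.

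Partner genes of the charging reaction were taken from 7 lists with 39 genes, all of which were tested. The lists were chosen with earlier results of these data known, so that shares among them cannot show enrichment. Only 1 of the 39 rose and 0 fell at an adjusted p under 0.05, against 0.0535% of all genes tested that were called higher, and 28 had a log2 fold change above 0. That gene was Asns, asparagine synthetase, which makes asparagine for protein synthesis and is a classical target of Atf4. Its level was 34.3, 25.7 and 30.7 CPM in control libraries and 50.3, 61.2 and 49.7 CPM in mutant libraries, so that the groups stood well apart. The log2 fold change was 0.83 (SE 0.12, edgeR adjusted p 0.0390). With any 1 library left out, its adjusted p lay between 0.0636 and 0.188 in edgeR and its log2 fold change between 0.73 and 0.93, and limma-voom gave an adjusted p of 0.05003, just past the threshold. Its promoter holds the same element core as the synthetase promoters above.
Asns, chr6:7693214-7693243, reverse strand, positions -34 to -5: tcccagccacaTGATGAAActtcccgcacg

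Xpot, the exportin that carries mature tRNA out of the nucleus, had 105, 94.6 and 98.2 CPM in control libraries and 110, 123 and 125 CPM in mutant libraries. Its groups did not overlap, and the log2 fold change was 0.26 (SE 0.08, edgeR adjusted p 0.395). In the Xpot promoter the E-box was found, and the element core was not. Eprs, the joint enzyme for glutamate and proline, had 279, 265 and 253 CPM in control libraries and 261, 271 and 296 CPM in mutant libraries, and its log2 fold change was 0.06 (SE 0.09, edgeR adjusted p 0.914). Levels of both groups overlapped for Eprs, and its 95% interval ran from -0.13 to 0.25.

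In the other lists no gene was called. Aimp2, a scaffold of the multisynthetase complex, had the lowest p of its list with a log2 fold change of -0.11, and its controls had 25.9, 22.6 and 27.8 CPM against 20.9, 23.9 and 25.8 CPM in mutant libraries. Ptrhd1, of the list for proofreading and rescue of stray aminoacyl-tRNA, had 5.996, 6.84 and 5.09 CPM in control libraries and 6.90, 7.18 and 7.40 CPM in mutant libraries (log2 fold change 0.26). Gatc, a subunit of the mitochondrial amidotransferase that makes glutaminyl-tRNA, had 21.997, 26.6 and 24.8 CPM against 22.9, 23.7 and 21.6 CPM (log2 fold change -0.11).
Of these, only Ptrhd1 separated between the groups. Secisbp2, which reads the selenocysteine signal in messenger RNA, had 22.4, 24.8 and 26.5 CPM in control libraries and 27.1, 25.6 and 27.1 CPM in mutant libraries (log2 fold change 0.11). Eef1g, a subunit of the elongation factor complex that delivers charged tRNA, had 342, 349 and 372 CPM against 404, 385 and 356 CPM (log2 fold change 0.11). For the sensing of uncharged tRNA, the log2 fold changes were 0.09 for Eif2ak4, 0.10 for its activator Gcn1 (Gcn1l1 in the count tables), 0.19 for its inhibitor Impact and -0.08 for Atf4, and of these Eif2ak4 separated between groups, at 28.4 to 30.6 CPM in control libraries and 31.1 to 31.8 CPM in mutant libraries.

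Markers of other tissues moved with genotype in these libraries. Tendon markers had a summed level of 2989 to 3285 CPM in control libraries and 2002 to 2339 CPM in mutant libraries. Of these genes, 4 of 5 separated downward, against 7.58% of all genes tested, and Tnmd was called (log2 fold change -0.81, adjusted p = 0.0374, edgeR). Erythroid markers had 208 to 554 CPM in control libraries and 105 to 157 CPM in mutant libraries. Here 4 of 4 genes separated downward, against the same 7.58%, and 0 were called. Epidermal markers had 7.49 to 15.6 CPM in control libraries and 5.89 to 6.37 CPM in mutant libraries, with Krt5 called lower and at 0 in mutant 2. Krt14 was too low to be tested, with 1, 5 and 8 counts in control libraries and 0, 0 and 1 in mutant libraries. Krt10 overlapped between the groups (log2 fold change -0.04). Osteoblast markers had 318 to 1282 CPM in control libraries and 1228 to 1960 CPM in mutant libraries, which overlapped. Log2 fold changes were above 0 in 5 of 5 genes, against 49.3% of all genes tested. Bglap among them was highest in mutant 2, at 43 counts against 10 to 24 counts elsewhere. Dmp1 separated upward, as did 6.85% of all genes tested, with a log2 fold change of 1.75 (SE 0.69, edgeR adjusted p 0.522). Its level in mutant 1, 84.4 CPM, was barely above that in control 1, 82.8 CPM. Endothelial (678 to 771 CPM), macrophage and osteoclast (248 to 410 CPM) and dividing cell markers (747 to 1006 CPM) overlapped between the groups in their sums. The endothelial receptor Kdr and the macrophage receptor Csf1r separated upward (log2 fold changes 0.25 and 0.24), as did 6.85% of all genes tested. None of the genes in these lists was called. The part of these tissues in the synthetase levels was not tested.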

How the data were processed

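Bulk RNA sequencing of growth plate cartilage gave 3 control and 3 mutant libraries. Reads were trimmed with Trim Galore 0.6.4 and mapped to GRCm38 with STAR 2.6.1d, and the authors deposited whole-number counts per gene from featureCounts 1.6.4, made without regard to strand. DESeq2 1.28.1 is also named in the submitters' processing notes. The deposited exon length per gene was used for RPKM.

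The counts were analysed with edgeR 4.0.16 in R 4.3.3: filterByExpr (minimum count 10, minimum total count 15), TMM factors, and the quasi-likelihood test of mutant against control over 16813 genes with Benjamini-Hochberg adjustment, called at an adjusted p under 0.05. The common dispersion was 0.0173. The study's methods name litter as a covariate, which the labels do not give, so that genotype alone was fitted. Intervals are at 95%. No per-sample column was left unused.

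Synthetases, partner lists, marker lists and tests were chosen with earlier results of these data known. Values in every library are given for the 10 synthetases with the lowest p, those whose groups do not overlap and the highest and lowest per length in each group, and for called partner genes, Eprs and the lowest p of each list. Yars, Qars, Fars2 and Nars2 were added after their values were seen, as were the other genes of uncharged tRNA sensing. Alternatives were upper-quartile factors, DESeq2 1.42.0 and limma-voom (limma 3.58.1), no low-count filter, at least 10 counts in every library, the replicate number as a block, and each library left out. Replicate libraries were no repeats of each other, since their counts differed beyond sampling noise (chi-square divided by its degrees of freedom, 11.6 to 45.1). The functions were tested on simulated counts. Overlaps were taken from GENCODE M21, shared stretches of Lars2 were found with BLAST (at least 60 bases at 95% identity), and figures were drawn with matplotlib 3.10.9. Protein sequences were not analysed here. Values of 1 synthetase gene and 1 promoter stretch are not reported here, although counts and medians include that gene.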

Additional observations from a re-analysis of the deposited data

How the results depend on the processing

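No synthetase was called under any alternative. All genes called, 32 in edgeR, came to 193 with DESeq2, 19 with limma-voom, 259 without the low-count filter and 3 to 17 with a library left out. The 1 called partner gene was lost with limma-voom and with each library left out (0 to 0 called). Synthetases without overlap numbered 9 to 12 under other settings (24.3% to 32.4%, against 11.2% to 14.6% of all genes tested). With a library left out they numbered 12 to 18, against 21% to 26.5% of all genes tested. No pairing of the libraries by replicate number was seen (correlation of deviations between same-numbered libraries -0.16, -0.0068 and -0.15), a check that cannot exclude a shared litter. With the replicate block, edgeR called 3 genes and 0 partner genes (adjusted p = 0.193 for Asns), DESeq2 called 96 genes, and the synthetases at an unadjusted p under 0.05 numbered 4 in edgeR (10.8%, against 6.80% of all genes) and 2 in DESeq2 (5.41%, against 3.92%). Over the libraries left out, the median log2 fold change lay between 0.08 and 0.15 for cytosolic, 0.082 and 0.14 for mitochondrial, 0.036 and 0.089 for class II and 0.084 and 0.17 for free cytosolic or dual genes. Signs turned in 8 of 259 values under other settings and 22 of 222 with a library left out, over 9 genes with small changes or, for Lars2, a wide interval, while 28 never turned. These were Yars2 0.0081 and Mars2 0.0095 with upper-quartile factors, Tarsl2 -0.00098 and Dars -0.00097 with DESeq2, Tarsl2 -0.0011 with DESeq2 and the block, Tarsl2 -0.0029 with limma-voom, and Tarsl2 -0.0040 and Dars -0.0042 without the low-count filter. With a library left out, ranges were -0.0125 to 0.078 for Kars, -0.049 to 0.054 for Pars2, -0.068 to 0.047 for Yars2, -0.058 to 0.077 for Mars2, -0.15 to 0.65 for Lars2, -0.088 to 0.076 for Rars2, -0.036 to 0.055 for Tarsl2, -0.056 to 0.056 for Dars and -0.0076 to 0.107 for Tars. The causes were not tested. With 3 libraries a group, the standard error was 0.07 to 0.16 on the log2 scale for all synthetases but Lars2 (0.35), which limits the size of difference that could be called.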
